A study of Homo sapiens with 16 samples.

Results

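The 87 CD genes described here are those protein-coding RefSeq genes of chromosomes 1 to 22 whose official symbol is CD followed by a number and at most a short suffix (CD3D, CD28, CD79A, CD46). They are 87 of 19122 protein-coding genes on these chromosomes, and all 87 could be measured, as could 18158 genes in all. CD (cluster of differentiation) numbers name cell surface molecules that antibodies use to tell white blood cells apart. The symbol rule does not ensure a surface molecule. CD2AP, an adaptor of the actin cytoskeleton, and CD2BP2, a splicing protein, carry the name of their partner CD2 and are no surface molecules. They are kept by the rule and described on their own. Whether every other member is a surface molecule was not established, and CD5L, named for its likeness to CD5, is counted with the myeloid genes.

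The study mapped TOP2A cleavage cluster regions (short stretches where DNA held by the enzyme piled up) in K562, an established human chronic myeloid leukaemia line. Cells received 0.05% DMSO as vehicle for 1 or 4 h, 25 µM etoposide for 1 h, 50 µM genistein for 1 h, 2 µM mitoxantrone for 1 h or 8 µM p-benzoquinone for 4 h, so p-benzoquinone differs from the other poisons in time as well as in agent. The poisons were also given in 0.05% DMSO. By source name, 12 libraries in the labels, input included, were amplified and the rest were not, though a p-benzoquinone library grouped as not amplified is called amplified in its description. The labels name 14 treated or vehicle libraries and 2 input libraries, but the deposited result is 1 list of regions per treatment, 5 lists in all. Mitoxantrone has 1 library in the labels, and the other treatments have several that are not kept apart in their list. No list therefore has replicates, no test between treatments could be made and no p-value is given. All intervals cover counting error alone. No measurement of RNA or surface protein was used, so which CD molecules these cells carry is not shown here.

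DNA topoisomerase II alpha (TOP2A) relieves tangles by cutting both strands of one duplex, holding the ends by a covalent bond and passing another duplex through the break. TOP2 poisons raise the number of such cut intermediates, and treatment with them is known to be followed in some patients by leukaemias with gene rearrangements. CD genes are textbook lineage genes: T cell, B cell and myeloid molecules are switched on in different blood lineages, and many lie in families that arose by local duplication, such as the CD1, CD3 and CD300 genes.

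The lists held 296907 regions for DMSO, 173814 under etoposide, 395617 under genistein, 193147 under mitoxantrone and 347383 under p-benzoquinone on chromosomes 1 to 22. Their depth in reads is unknown. Each region has a value without a stated unit, and low values fall on steps that differ between library components: a coarse step of 0.3240 to 0.3585 or a fine step of 0.2273 to 0.2460. DMSO and etoposide mix coarse and fine components, genistein and mitoxantrone hold coarse ones and p-benzoquinone holds fine ones. Values under 3.6 occur in the lists with fine components and nowhere else. Which labelled library gave which component is not assigned, so results are also given within components of 1 class.

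The promoters of CD79A and CD3D are shown because they were overlapped by regions of more than 1 list. CD79A encodes the signalling chain Ig-alpha of the B cell receptor, and CD3D encodes the delta chain of the T cell receptor complex. Each sequence is the 250 bases before the RefSeq start (GRCh38.p14), 5′ to 3′ on the gene's strand, with capitals where regions of at least 2 lists lie. CD79A is at chr19:41877029-41877278 on the plus strand, and CD3D is at chr11:118342706-118342955 on the minus strand.
CD79A: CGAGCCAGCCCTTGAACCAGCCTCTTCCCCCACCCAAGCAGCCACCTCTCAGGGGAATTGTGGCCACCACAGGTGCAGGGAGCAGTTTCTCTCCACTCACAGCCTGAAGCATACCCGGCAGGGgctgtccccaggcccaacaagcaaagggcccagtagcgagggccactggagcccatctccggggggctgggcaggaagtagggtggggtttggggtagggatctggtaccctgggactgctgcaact
CD3D: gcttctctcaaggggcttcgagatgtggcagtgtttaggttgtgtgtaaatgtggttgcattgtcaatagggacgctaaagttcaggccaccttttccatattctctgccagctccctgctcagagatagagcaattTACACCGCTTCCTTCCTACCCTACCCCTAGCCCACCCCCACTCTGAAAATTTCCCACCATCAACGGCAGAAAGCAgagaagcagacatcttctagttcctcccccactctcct

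In CD79A the capitals cover 123 of the 250 bases, and regions of the DMSO, genistein and p-benzoquinone lists lie there. The genistein region has a deposited value of 17.6, that of p-benzoquinone 9.17 and that of DMSO 2.07. In CD3D the capitals cover 75 bases, shared by a genistein region of value 21.2 and a p-benzoquinone region of value 4.10. Both stretches hold 2 CG dinucleotides, of 4 in each 250-base sequence. Values are not comparable between lists, because their scale is not stated.

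Counted over gene bodies extended by 2 kb at either end, the 87 CD genes together held about as many regions as other genes of the same length. Expected numbers come from the mean density in non-CD genes of the same window length, in 10 length bins. The sum was 377 against 355 expected in DMSO, a ratio of 1.06 (95% Poisson interval 0.958 to 1.18). Etoposide gave 227 against 195, a ratio of 1.17 (1.02 to 1.33), and genistein 475 against 422, a ratio of 1.12 (1.03 to 1.23). For mitoxantrone the sum was 215 against 209, a ratio of 1.03 (0.897 to 1.18), and for p-benzoquinone 478 against 469, a ratio of 1.02 (0.931 to 1.12). The etoposide and genistein intervals lie just above 1, and those of the other 3 lists include it.

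Gene by gene, the share and the median of the CD genes were somewhat above those of all genes in every list. In DMSO 45 of 87 CD genes (51.7%) lay above the mean of their length bin, where 46.2% of all measured genes did. The number was 48 (55.2%) under etoposide (all genes 44.3%) and 51 (58.6%) under genistein (47.3%). It was 45 (51.7%) under mitoxantrone (44.6%) and 47 (54.0%) under p-benzoquinone (46.0%). The median ratio of the CD genes was 1.02, 1.06, 1.05, 1.04 and 1.02 in the same order, beside 0.948, 0.915, 0.970, 0.907 and 0.946 over all genes. Single genes spread widely: in etoposide the middle 80% of CD genes ran from 0 to 2.15, and that of other genes from 0 to 2.06. This spread is not the error of a share or median over 87 genes, which was not computed.

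**Figure D1:**
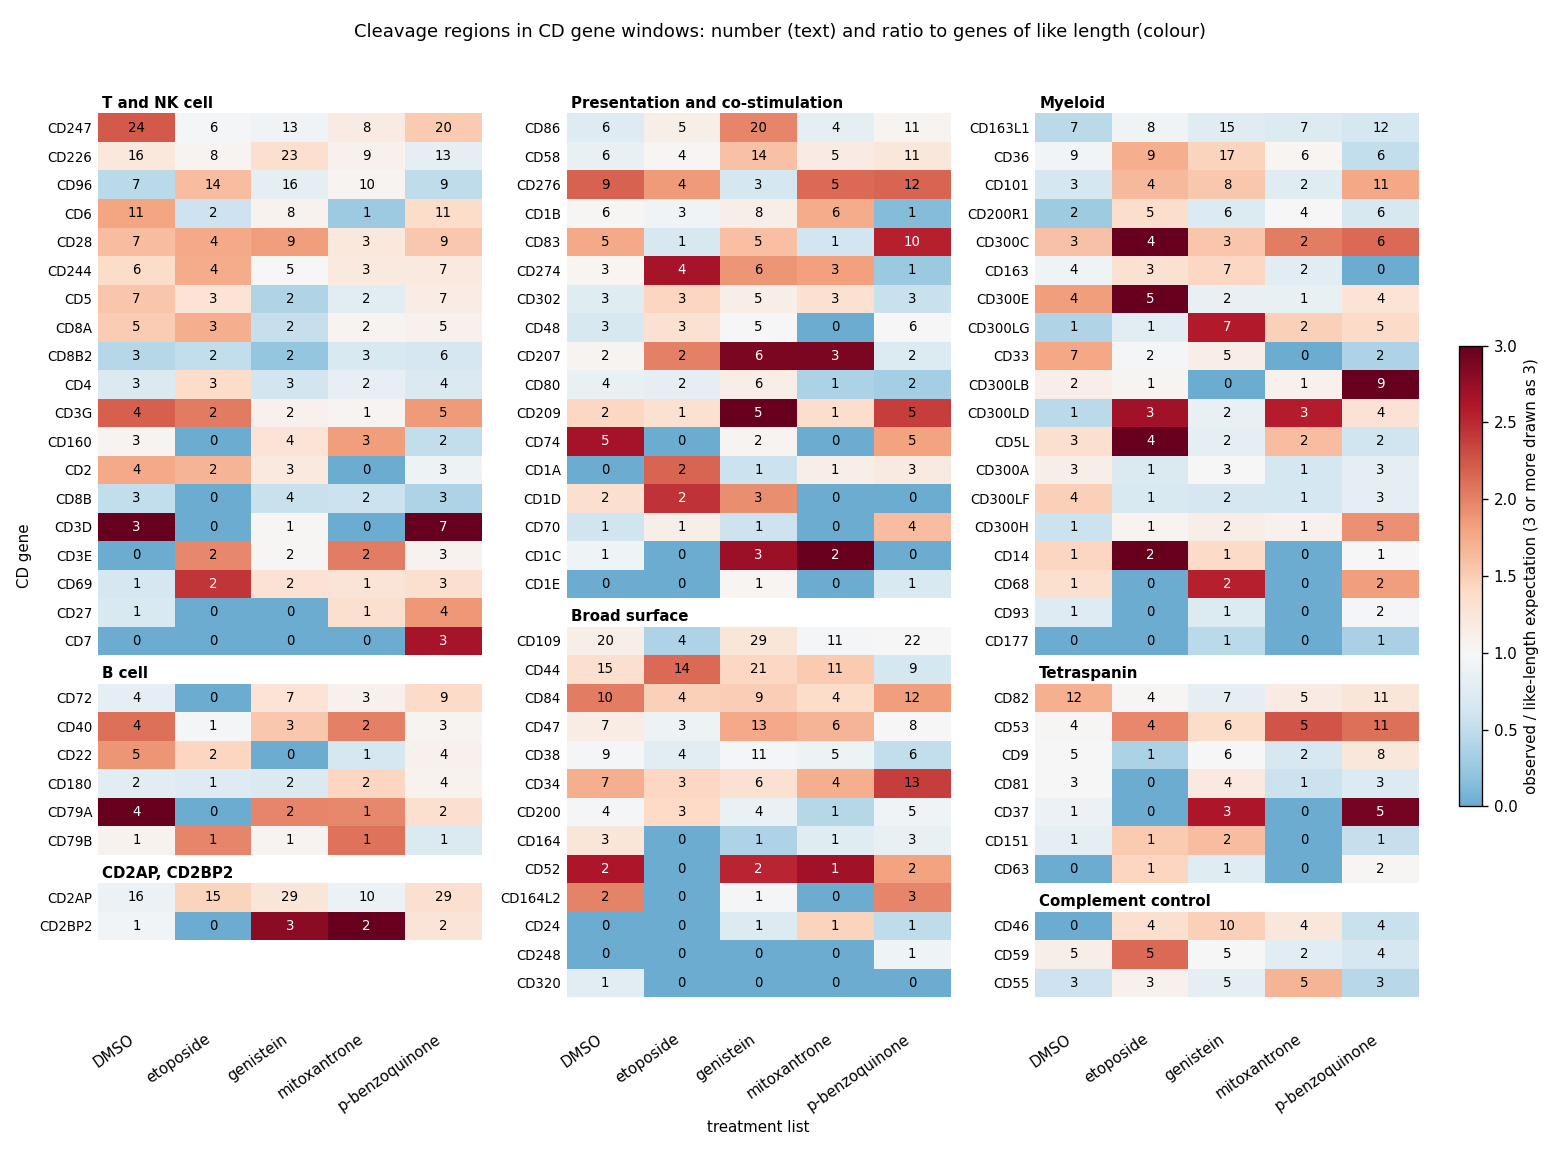
Region number of the CD genes reported here (text in each cell) in the 5 treatment lists (columns), grouped by role, with colour for the ratio to the number expected for genes of like length (white at 1, red above, blue below). Long genes such as CD109, CD2AP and CD247 hold 20 or more regions in some lists, and most short genes hold 0 to 5.

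Because most CD genes are compact, their counts are small. Windows ran from 5.97 to 153 kb, and the median gene held 3 regions in DMSO, 2 under etoposide, 3 under genistein, 2 under mitoxantrone and 4 under p-benzoquinone. CD genes without any region numbered 9, 22, 7, 19 and 4 in these lists, which is 10.3%, 25.3%, 8.05%, 21.8% and 4.60% of 87, beside 13.9%, 24.6%, 12.9%, 24.3% and 9.44% of all genes. No CD gene was empty in all 5, and 50 had a region in every list. The matching shares of all genes were not computed, so these counts are not read as particular to CD genes. CD genes above the like-length mean in all 5 lists numbered 8, which is 9.20% of 87, beside 4.74% of all genes. They were CD209, CD244, CD28, CD300C, CD34, CD3G, CD53 and CD84. Another 8, again 9.20%, lay below it in all 5 lists, beside 11.2% of all genes: CD163L1, CD177, CD248, CD320, CD38, CD8B, CD8B2 and CD93.

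Split by window length, the 41 shortest CD genes (5.97 to 21.2 kb) held 121 regions in p-benzoquinone against 91.9 expected, a ratio of 1.32 (1.09 to 1.57). The 13 longest (60.0 to 153 kb) held 165 against 185 there, a ratio of 0.892 (0.761 to 1.04). In the other 4 lists the ratios of the short genes ran from 1.10 to 1.30 and every interval included 1.

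The whole lists were then split into their value-step components. In etoposide the coarse component gave a ratio of 1.20 (1.01 to 1.42) for all CD genes and the fine ones 1.26 and 1.08. Genistein gave 1.17 and 1.09 in its coarse components, and mitoxantrone 1.09 in its own. DMSO gave 1.07 in the coarse and 1.05 in the fine component, while the fine components of p-benzoquinone gave 0.961 (0.854 to 1.08) and 1.21 (0.968 to 1.50).

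**Figure D2:**
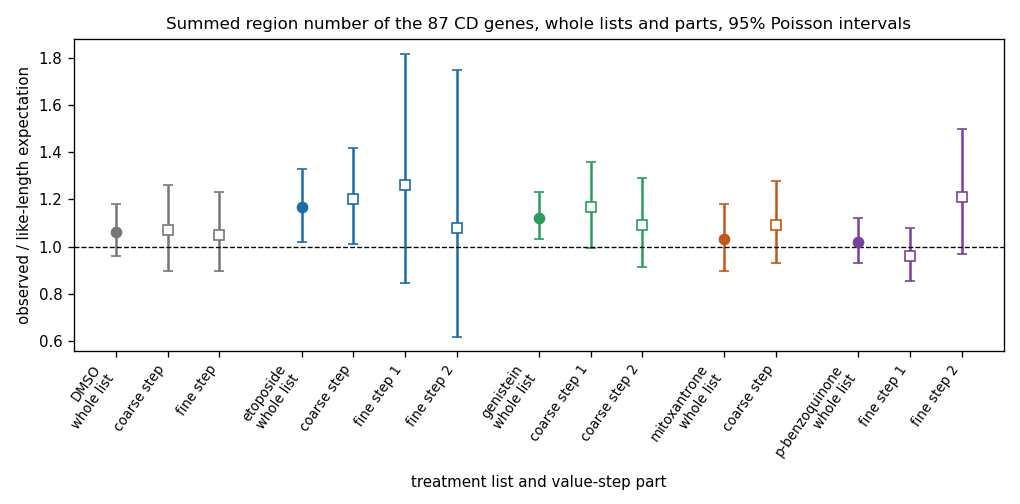
Summed region number of the 87 CD genes over the like-length expectation (vertical axis) for each whole list (filled circles) and for each value-step component (open squares), with 95% Poisson intervals as bars. All components lie between 0.961 and 1.26, and 1 of them, the coarse component of etoposide, has an interval above 1.

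The CD genes were grouped into 8 sets by role, which gave 40 ratios to the like-length expectation. These sets were drawn up with earlier results of these data known, so their intervals are descriptive. How many of the 40 would miss 1 by counting error alone was not tested. The 95% interval lay above 1 for 2 of them, presentation and co-stimulatory ligands in genistein and myeloid genes in etoposide, and below 1 for 1, complement control genes in p-benzoquinone. Of the 32 ratios over DMSO, scaled to the number of regions in each list, 1 had an interval above 1 and 2 had one below.

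**Figure D3:**
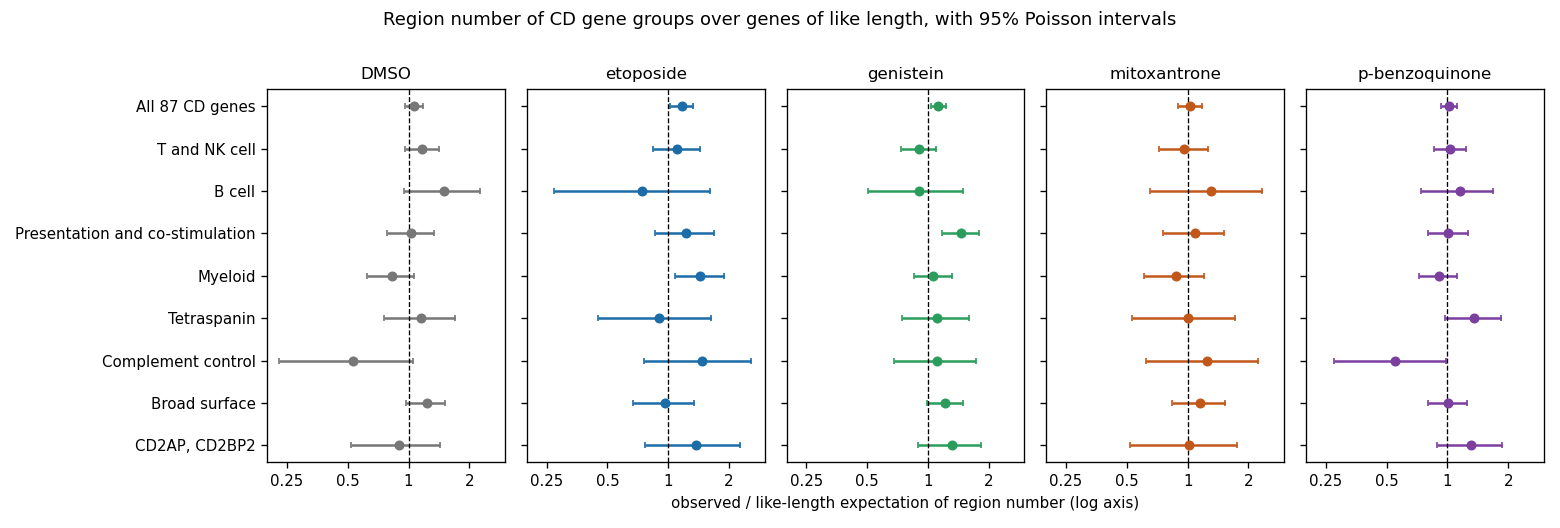
Region number over the like-length expectation (horizontal log axis, 1 panel per list) for all 87 CD genes and the 8 role groups, with 95% Poisson intervals as bars. The presentation and co-stimulation group in genistein (1.46) and the myeloid group in etoposide (1.44) lie to the right of the dashed line at 1 with their whole interval.

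Among 19 T and NK cell genes, which include receptors and co-receptors of antigen recognition, the DMSO list had the most regions for its size. They held 108 regions in DMSO against 92.4 expected (1.17, 0.958 to 1.41), 57 under etoposide (1.11), 101 under genistein (0.903), 53 under mitoxantrone (0.960) and 124 under p-benzoquinone (1.03). The scaled genistein number was 0.702 of that in DMSO (0.530 to 0.929). In etoposide the coarse component gave 1.43 times the expectation (1.03 to 1.93) and the fine ones 1.02 and 0.527. The lower genistein ratio was not seen within coarse components, where the 2 genistein components gave 0.950 (0.592 to 1.53) and 0.937 (0.575 to 1.52) of the coarse DMSO component. Without CD247 the ratio was 0.786 (0.576 to 1.07), so 1 gene moved the interval across 1.

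CD247, at chr1:167430640-167518529, encodes the zeta chain that carries the T cell receptor signal. Its window held 24 regions in DMSO, the highest DMSO number of any CD gene, then 6 under etoposide, 13 under genistein, 8 under mitoxantrone and 20 under p-benzoquinone. Over the like-length expectation that was 2.23 in DMSO and 0.926 to 1.52 in the poison lists. The scaled ratio over DMSO was 0.427 (0.143 to 1.07) under etoposide, 0.407 (0.190 to 0.831) under genistein, 0.512 (0.199 to 1.18) under mitoxantrone and 0.712 (0.373 to 1.35) under p-benzoquinone. All 4 ratios share the same DMSO list, so they are not independent of each other. Within coarse components the log2 ratio of genistein was -1.10, from 8 regions in each, beside -1.30 for the whole lists. That of etoposide was -1.26 within coarse components (3 regions against 8) and -0.26 within fine ones (2 against 10), beside -1.23, so it was past 2-fold in the coarse components and not in the fine ones.

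CD96 went the other way. It encodes a receptor of T and NK cells that binds nectin-like ligands, at chr3:111542197-111665996, and held 7 regions in DMSO, 14 under etoposide, 16 under genistein, 10 under mitoxantrone and 9 under p-benzoquinone. Its etoposide number was the highest over DMSO of all CD genes with at least 10 regions in either list, at 3.42 (1.29 to 10.0). The mitoxantrone ratio was 2.20 (0.755 to 6.80). Coarse components gave 13 etoposide regions against 4 in DMSO, and for mitoxantrone 7 against 4, a log2 ratio of 0.58 that is short of 2-fold, beside 1.13 for the whole lists. Set against genes of its length, CD96 was low in DMSO (0.468) and p-benzoquinone (0.491), near the mean in genistein (0.820) and mitoxantrone (1.05), and high in etoposide (1.62).

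CD6 and CD226 are the other T cell genes with many regions. CD6, a scavenger receptor family molecule that tunes T cell activation (chr11:60971680-61020377), held 11 regions in DMSO, 2 under etoposide, 8 under genistein, 1 under mitoxantrone and 11 under p-benzoquinone. The mitoxantrone number was 0.140 of the scaled DMSO number (0.00325 to 0.961), and the etoposide number 0.311 (0.0335 to 1.42). Of its assigned DMSO regions 7 were fine and 2 coarse, so within coarse components both ratios rest on 1 region against 2. The log2 ratio of etoposide was -0.85 there and -0.75 within fine components, both short of 2-fold, beside -1.69 for the whole lists. CD226, an activating receptor (chr18:69853274-69961773), was steady, with 16, 8, 23, 9 and 13 regions in DMSO, etoposide, genistein, mitoxantrone and p-benzoquinone and ratios over DMSO from 0.694 to 1.08.

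CD28, the main co-stimulatory receptor of T cells, held 7, 4, 9, 3 and 9 regions in the same order and lay at 1.21 to 1.84 times its expectation in every list. CD8B and CD8B2 were the lowest genes of the group. CD8B, the beta chain of the CD8 co-receptor, held 3, 0, 4, 2 and 3 regions, a mean ratio of 0.405, and its near-identical copy CD8B2 held 3, 2, 2, 3 and 6, a mean ratio of 0.503. Reads from such copies cannot be placed with certainty, how they were treated is not given in the sources used here, and their part in these numbers was not tested.

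The 3 CD3 genes, which encode the delta, gamma and epsilon chains of the T cell receptor complex, lie side by side on chromosome 11. Counting each region once, their joined windows of 35.7 kb held 6 regions in DMSO, 4 under etoposide, 4 under genistein, 3 under mitoxantrone and 13 under p-benzoquinone. The p-benzoquinone number was 2.75 times the genome mean for that length (1.46 to 4.69), and the other 4 lists ran from 0.742 to 1.69 with intervals that include 1. Over the like-length expectation, summed over the 3 windows, the ratio was 2.15 in p-benzoquinone and 1.05 to 1.59 in the other lists. No interval was computed for these sums. The genome mean takes no account of gene length, and p-benzoquinone density was 187 regions per Mb in length bin 2 and 139 in the longest bin. The CD3D window held 7 of the p-benzoquinone regions against 1.45 expected, beside 3 in DMSO, 0 under etoposide, 1 under genistein and 0 under mitoxantrone. It overlaps the CD3G window, which shares 2 of these p-benzoquinone regions, 1 of DMSO and 1 of genistein.

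The 7 B cell genes held few regions. Their DMSO sum was 23 against 15.3 (1.50, 0.950 to 2.25), with 6 under etoposide (0.739), 15 under genistein (0.905), 11 under mitoxantrone (1.31) and 25 under p-benzoquinone (1.15). Of the DMSO regions, 15 fell in the fine component (2.13 times its expectation, 1.19 to 3.52) and 2 in the coarse one (0.381, 0.0461 to 1.38). The scaled genistein number was 0.489 of DMSO (0.238 to 0.979), but genistein has coarse components alone, and against the coarse DMSO regions these gave 2.64 (0.471 to 26.7) and 1.44 (0.165 to 17.3). The direction thus turned with the component compared.

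Single B cell genes followed no common order. CD72, an inhibitory co-receptor, held 4, 0, 7, 3 and 9 regions in DMSO, etoposide, genistein, mitoxantrone and p-benzoquinone. CD22, an inhibitory lectin that binds sialic acid, held 5, 2, 0, 1 and 4. CD40, the receptor for T cell help, held 4, 1, 3, 2 and 3, and CD180, a Toll-like receptor relative, held 2, 1, 2, 2 and 4. CD79A held 4 regions in DMSO in a window of 8.09 kb, 4.02 times its expectation, then 0, 2, 1 and 2.

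The group of antigen presentation genes and co-stimulatory ligands, 17 in all, had its highest ratio in genistein. It also holds CD207, CD209 and CD302, which fit neither description. These held 6, 5 and 5 genistein regions against 2.08, 1.45 and 4.51 expected, and the ratio without them was not computed. The 17 genes held 94 genistein regions against 64.3 expected, a ratio of 1.46 (1.18 to 1.79), and 14 of the 17 lay above their like-length mean. The ratio was 1.03 in DMSO (58 regions), 1.23 under etoposide (37), 1.09 under mitoxantrone (35) and 1.01 under p-benzoquinone (77). Both genistein components gave the excess, at 1.48 (1.01 to 2.09) and 1.75 (1.21 to 2.44), and it was 1.37 (1.07 to 1.72) without CD86. The fine components of etoposide gave 2.41 (1.10 to 4.58), from 9 regions, and 2.06 (0.668 to 4.80). Its coarse component gave 0.941 (0.538 to 1.53), so a high ratio in a component was not particular to genistein. Over DMSO the scaled genistein number was 1.22 (0.868 to 1.72), an interval that includes 1.

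CD86, a ligand of CD28 and CTLA4 on antigen-presenting cells (chr3:122055362-122121136), held 6 regions in DMSO, 5 under etoposide, 20 under genistein, 4 under mitoxantrone and 11 under p-benzoquinone. Genistein stood above the rest at 1.97 times the expectation and 2.50 times the scaled DMSO number (0.969 to 7.61). Its genistein regions came from both components, 10 and 6, beside 1 coarse and 3 fine DMSO regions. CD80, the other ligand of CD28 and CTLA4, held 4, 2, 6, 1 and 2 regions in the same order of lists, and its mean ratio was 0.699.

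CD58, the ligand of CD2, held 6, 4, 14, 5 and 11 regions, with a genistein ratio over DMSO of 1.75. CD276, an immune checkpoint ligand also called B7-H3, differed in order: it held 9 in DMSO, 4 under etoposide, 3 under genistein, 5 under mitoxantrone and 12 under p-benzoquinone, and lay at 1.85 to 2.18 times its expectation in every list but genistein (0.646). CD83, a maturation marker of dendritic cells, held 5, 1, 5, 1 and 10 regions, with the p-benzoquinone number at 2.56 times its expectation. CD48, a ligand of CD244, held 3, 3, 5, 0 and 6.

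The 5 CD1 genes encode molecules that present lipids to T cells and lie together on chromosome 1. Counted once, their regions numbered 8, 7, 13, 7 and 5 in the 5 lists, and the p-benzoquinone number was 0.448 of the genome mean (0.145 to 1.04), the lowest of the 5. Over the like-length expectation, summed over the 5 windows, the p-benzoquinone ratio was 0.321, for which no interval was computed. CD1B held 6 regions in DMSO, 3 under etoposide, 8 under genistein, 6 under mitoxantrone and 1 under p-benzoquinone. Its RefSeq span contains the CD1C gene, so the 2 genes share regions, 3 of them in genistein.

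The 19 myeloid genes had their highest ratio in etoposide. They held 54 regions there against 37.5 expected, a ratio of 1.44 (1.08 to 1.88), and 57 in DMSO against 69.0, a ratio of 0.826 (0.625 to 1.07). Genistein gave 86 (1.06), mitoxantrone 35 (0.873) and p-benzoquinone 84 (0.908). Scaled to list size, etoposide was 1.62 times DMSO (1.09 to 2.39), and 1.57 (1.03 to 2.39) without CD163L1. Within coarse components the ratio was 1.42 (0.818 to 2.51), from 32 regions against 25, and that interval includes 1. Over the like-length expectation, the etoposide ratio without CD300E was 1.35 (0.997 to 1.78). Of the 19 genes, 7 are CD300 genes of 1 locus on chromosome 17, at 2.00 times their 8.00 expected etoposide regions. The group ratio without that locus was not computed, so it is not shown to hold for myeloid genes elsewhere.

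CD163L1, a scavenger receptor of macrophages and the longest myeloid gene here, held 7, 8, 15, 7 and 12 regions in DMSO, etoposide, genistein, mitoxantrone and p-benzoquinone, and lay at 0.462 to 0.914 of its expectation. CD36, which takes up fatty acids and oxidised lipoproteins, held 9, 9, 17, 6 and 6. CD200R1, the receptor through which CD200 restrains myeloid cells, held 2, 5, 6, 4 and 6, so DMSO was the lowest list at 0.295 of its expectation. CD101, an inhibitory receptor (chr1:117001760-117036552), held 3 regions in DMSO, 4 under etoposide, 8 under genistein, 2 under mitoxantrone and 11 under p-benzoquinone. Its p-benzoquinone number was 3.13 times the scaled DMSO number (0.828 to 17.5), and within fine components it was 9 regions against 1.

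The CD300 genes are a family of activating and inhibitory lipid-binding receptors, 7 of which lie together on chromosome 17. Over their joined windows of 124 kb they held 18 regions in DMSO, 15 under etoposide, 14 under genistein, 10 under mitoxantrone and 33 under p-benzoquinone. Against the genome mean for that length the ratio was 2.01 under p-benzoquinone (1.38 to 2.82) and 1.82 under etoposide (1.02 to 3.01), while genistein gave 0.748 (0.409 to 1.26). Over the like-length expectation, summed over the 7 windows, these ratios were 1.57, 2.00 and 0.864, for which no interval was computed. CD300LB held 9 of the p-benzoquinone regions, beside 2, 1, 0 and 1 in DMSO, etoposide, genistein and mitoxantrone. Its window overlaps that of CD300C, and they share 1 p-benzoquinone and 1 etoposide region. CD300E and CD300C held the most in etoposide, 5 and 4 regions, at 4.42 and 3.90 times their expectation.

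Among the 7 tetraspanins, which organise other membrane proteins into domains, the sums were 26 in DMSO (1.15), 11 under etoposide (0.903), 29 under genistein (1.11), 13 under mitoxantrone (1.00) and 41 under p-benzoquinone (1.35, 0.971 to 1.84). CD53, a tetraspanin of leukocytes (chr1:110871210-110899922), held 4, 4, 6, 5 and 11 regions, above its expectation in every list. The p-benzoquinone number was 2.35 times the scaled DMSO number (0.696 to 10.1), but within fine components it was 10 against 4, a log2 ratio of 0.08. CD82, a tetraspanin known as a metastasis suppressor, held 12, 4, 7, 5 and 11 regions and was lower in genistein, at 0.438 of DMSO (0.146 to 1.21). CD9 held 5, 1, 6, 2 and 8, and CD81 held 3, 0, 4, 1 and 3.

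CD46, CD55 and CD59 protect cells from complement: CD46 is a cofactor for cleaving C3b and C4b, CD55 speeds the decay of the convertases and CD59 blocks the membrane attack complex. Together they held 8 regions in DMSO against 15.1 (0.531, 0.229 to 1.05), 12 under etoposide (1.47), 20 under genistein (1.11), 11 under mitoxantrone (1.25) and 11 under p-benzoquinone (0.551, 0.275 to 0.986). The p-benzoquinone ratio was 0.602 (upper limit 1.19) without CD55, and its fine components gave 0.384 (0.125 to 0.895) and 1.32 (0.360 to 3.38). CD46 gave 0 of the 8 DMSO regions. In its window at chr1:207752038-207795516 no DMSO region was found where 5.55 were expected, while etoposide had 4, genistein 10, mitoxantrone 4 and p-benzoquinone 4. Against a floor of 3 regions in the DMSO list, CD46 was at least 2.50-fold higher in genistein, at least 2.28-fold higher in etoposide, at least 2.05-fold higher in mitoxantrone and at least 1.14-fold higher in p-benzoquinone. The floor does not carry the counting error of the poison lists: the exact lower 95% limits of the ratio to DMSO were 1.68, 1.13, 1.01 and 0.564 in the same order, so the p-benzoquinone interval includes 1. CD55 held 3, 3, 5, 5 and 3 regions, from 0.451 of its expectation in p-benzoquinone to 1.68 in mitoxantrone. CD59 held 5, 5, 5, 2 and 4, with the highest ratio to its expectation in etoposide (2.14) and the lowest in p-benzoquinone (0.667).

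The group called broad surface is a mixed set of 13 genes, among them CD34, CD38 and CD84, and not all are broadly expressed. It held 80 regions in DMSO (1.23, 0.972 to 1.52), 35 under etoposide (0.962), 98 under genistein (1.22, 0.992 to 1.49), 45 under mitoxantrone (1.15) and 85 under p-benzoquinone (1.01). CD109, a GPI-anchored protein and one of the longest CD genes (chr6:73679192-73828313), held 20, 4, 29, 11 and 22 regions. Etoposide was low, at 0.386 of the expectation and 0.342 of the scaled DMSO number (0.0849 to 1.02), and the log2 ratio was -1.17 within coarse and -1.40 within fine components. CD44, the hyaluronan receptor, held 15, 14, 21, 11 and 9 regions: etoposide was its highest list at 2.13 times the expectation and p-benzoquinone its lowest at 0.646.

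CD34, the marker of blood progenitors, lay above its expectation in every list, with 7, 3, 6, 4 and 13 regions and a mean ratio of 1.71. CD84, a self-binding receptor of the SLAM family, held 10, 4, 9, 4 and 12, a mean ratio of 1.64. CD47, the signal that restrains phagocytosis, held 7, 3, 13, 6 and 8. Of the pair named after their partner CD2, the long CD2AP held 16, 15, 29, 10 and 29 regions, at 0.878 to 1.44 times its expectation. The short CD2BP2 held 1, 0, 3, 2 and 2, and these few regions gave ratios from 0 in etoposide to 2.81 in genistein and 3.73 in mitoxantrone.

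Between single poisons and DMSO, CD genes with at least 10 regions in either list were read against the share of all such genes past 2-fold. For etoposide 9 CD genes qualified: 1 was at least 2-fold higher, CD96, beside 2.84% of all genes, and 3 were at least 2-fold lower, CD109, CD247 and CD6, beside 10.5%. For genistein 16 qualified: CD46 and CD86 were higher (all genes 6.48%) and CD247 and CD82 lower (6.66%). Of 9 under mitoxantrone, CD96 was higher (3.87%) and CD6 lower (11.6%). Of 16 under p-benzoquinone, CD101 and CD53 were higher (9.16%) and none was lower (4.35%). These numbers are too small to tell a share of CD genes from that of all genes.

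**Figure D4:**
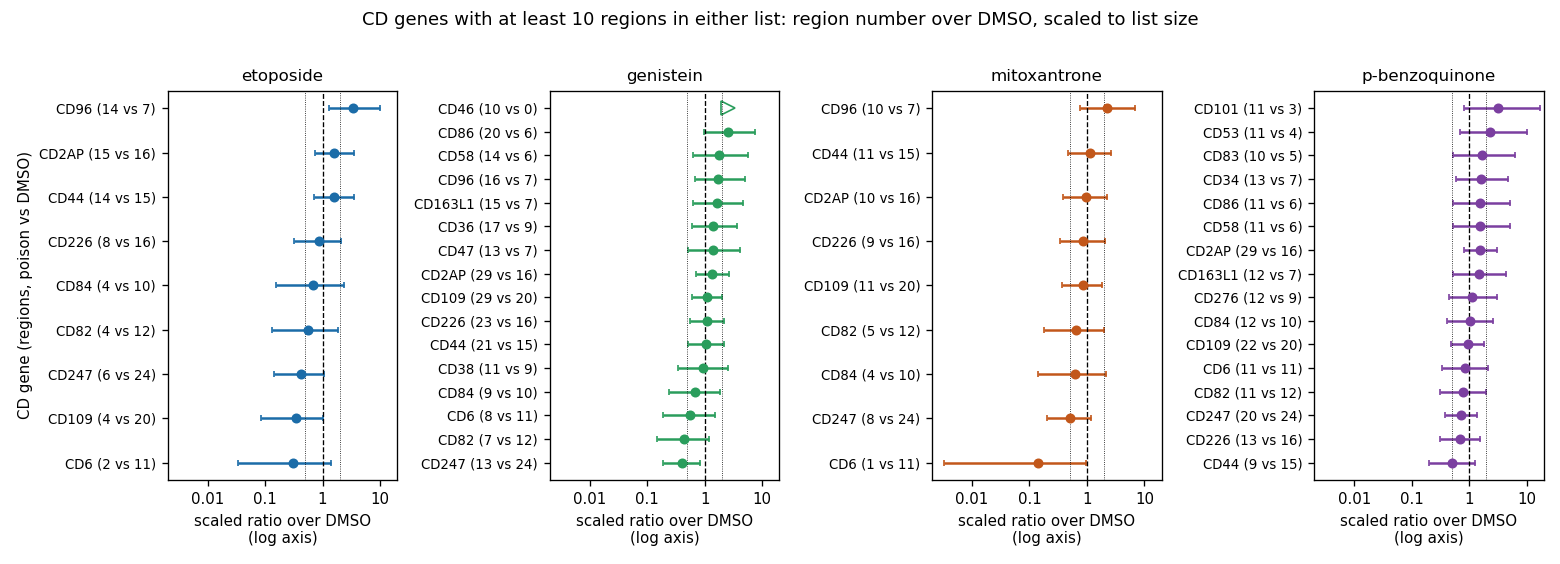
Scaled ratio of region number over DMSO (horizontal log axis) for CD genes with at least 10 regions in either list, 1 panel per poison, with exact binomial 95% intervals as bars, dotted lines at 0.5 and 2, and region numbers beside each name. The open triangle is a lower bound for CD46, which had no DMSO region; CD96 under etoposide and CD247 under genistein are the points whose intervals lie clear of 1 on either side, besides CD6 under mitoxantrone.

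Summed over all 87 genes, the interval of every poison over DMSO included 1. The scaled ratios were 1.03 (0.869 to 1.22) under etoposide, 0.946 (0.824 to 1.09) under genistein, 0.877 (0.738 to 1.04) under mitoxantrone and 1.08 (0.945 to 1.24) under p-benzoquinone. For other genes they were 0.980, 0.963, 0.965 and 1.05.

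Regions in CD genes were mostly found in 1 list. Joining regions that overlap between lists gave 1534 positions, of which 1332 (86.8%) occurred in 1 list, 182 in 2, 19 in 3, 1 in 4 and 0 in 5, and the share in 1 list was 87.5% for other genes. Of the etoposide regions in CD genes 6.64% overlapped a DMSO region (3.76% to 10.7%), beside 9.20% in other genes. The share was 6.79% of genistein, 10.3% of mitoxantrone and 8.42% of p-benzoquinone regions, beside 7.44%, 7.79% and 8.36%. The position found in 4 lists lies inside CD300E at chr17:74610784-74611349, with values of 22.3 in DMSO, 12.2 under genistein, 57.0 under mitoxantrone and 18.8 under p-benzoquinone, and none in etoposide. CD79A holds 2 positions found in 3 lists, the promoter stretch printed above and chr19:41877689-41878016 inside the gene, with values of 4.15 in DMSO, 34.8 under genistein and 7.77 under mitoxantrone.

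Region values in CD genes were close to those elsewhere. The median was 5.75 in DMSO (6.08 in other genes), 8.14 under etoposide (7.46), 12.9 under genistein (13.2), 11.3 under mitoxantrone (13.3) and 5.23 under p-benzoquinone (5.06). The highest etoposide value in a CD gene, 40.1, sits at the start of CD53, and 0.769% of the etoposide list is as high or higher. In genistein the highest, 90.8, also lies in CD53, 19.6 kb from its start. The mitoxantrone list alone carries an input signal, which was 0 for 22.1% of its 213 CD gene regions and for 42483 of its 192934 other regions.

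Promoters, taken as 250 bases before to 50 after the RefSeq start, were available for 61 CD genes. A region of any list overlapped 18 of them (29.5%), beside 17.9% of other promoters. Genistein made most of the difference, with 9 of 61 (14.8%, exact binomial interval 6.98% to 26.2%) beside 4.36%. DMSO overlapped 3 (4.92%, beside 4.52%), etoposide 3 (4.92%, beside 2.37%), mitoxantrone 1 (1.64%, beside 2.18%) and p-benzoquinone 5 (8.20%, beside 7.24%). The 9 genistein promoters belong to CD79A, CD3D, CD34, CD2, CD200R1, CD68, CD44, CD96 and CD163L1. Of those regions that could be placed on a step, the first coarse component reached 2 promoters (3.28%, 0.400% to 11.3%, beside 1.57% of other promoters) and the second 5 (8.20%, 2.72% to 18.1%, beside 1.25%). The interval lies above the share of other promoters in the second component alone.

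CD promoters differ from others in composition, which was taken into account. Their median observed over expected CpG ratio was 0.337 and their median GC content 54.0%, beside 0.775 and 63.0% for other genes. Among promoters with a ratio under 0.6, genistein regions overlapped 7 of 41 CD promoters (17.1%, 7.15% to 32.1%), beside 7.17% of 4671 other promoters. Among those at 0.6 or above it was 2 of 20 (10.0%, 1.23% to 31.7%), beside 3.00% of 9725. The share of CD promoters was thus higher in both classes, with intervals that reach down to or past the share of other promoters.

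**Figure D5:**
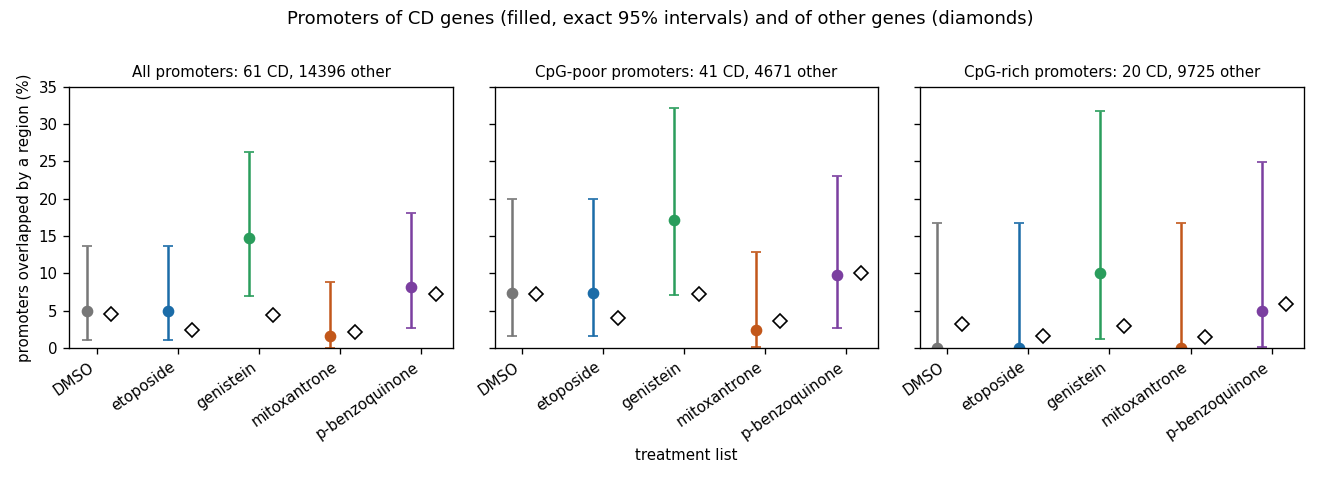
Share of promoters overlapped by a region (vertical axis, %) in each list for CD genes (filled circles with exact binomial 95% intervals) and for other genes (open diamonds), for all promoters and for those with a CpG ratio under 0.6 (CpG-poor) and of 0.6 or above (CpG-rich). Genistein stands at 14.8% beside 4.36% among all promoters and at 17.1% beside 7.17% among CpG-poor ones.

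Within 1 kb of the start, the 61 genes held 24 genistein regions in 22 genes (36.1% of 61, beside 21.4% of other genes), 1.30 times the genome mean (0.833 to 1.93), beside 0.784 for other genes. DMSO gave 1.30 (0.770 to 2.05, other genes 1.02), etoposide 1.23 (0.591 to 2.27, 0.905), mitoxantrone 0.777 (0.312 to 1.60, 0.750) and p-benzoquinone 1.54 (0.998 to 2.28, 1.29). Around the far end of the gene the p-benzoquinone ratio was 1.67 (1.10 to 2.42), beside 1.28 in other genes.

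A list of leukocyte surface genes with other symbols, such as BTLA, CCR7, CR2 and CXCR4, was counted for comparison, with 40 of 43 measured. Its ratio to the like-length expectation was 1.22 in DMSO (1.08 to 1.38), 1.08 under etoposide, 1.01 under genistein, 1.02 under mitoxantrone and 0.958 under p-benzoquinone. Its highest ratio was in DMSO, and that of the CD genes was in etoposide. The difference between the gene lists was not tested.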

How the data were processed

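The authors deposited 1 union list of regions per treatment, with a score of no stated unit for each region. The deposited mitoxantrone list also carries an input signal, a log2 value of treated over input and a p-value for regions without input; of these the input signal and log2 value were used to describe regions. The submitters' processing notes list hg38, Bowtie2 2.1.0 and SAMtools 0.1.19. Which program called the regions is not given in the sources used here. Matching by treatment label tied the mitoxantrone list to its library.

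Overlapping genistein entries were joined (405718 to 395617). A region belonged to a gene when its centre lay in the gene body or 2 kb on each side (RefSeq, GRCh38.p14). Windows needed at least 50% of their length in 100 kb bins holding a region of any list. Poisson and conditional binomial 95% intervals are exact; they treat regions as independent. Folds against 0 use a floor of 3 regions. Value steps were matched within 0.02 for values under 20. Between 20.4% and 37.7% of each list's values were left unplaced, and the DMSO components may pool libraries that share a step. The code for steps, expectation and intervals was run on simulated data. The simulated counts were Poisson, so this does not test whether the intervals hold for real regions.

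Genes were named by rule: the 3 highest and 3 lowest ratios per poison, the 5 highest and 5 lowest mean ratios among 39 genes with at least 3 expected regions, the 4 genes with most regions per role, and shared positions or promoters. Other names come from counts or clusters and were chosen after their values were seen. Some members are counted in the sums and not reported here singly. The members and the role groups were chosen with earlier results of these data known. Software: scipy 1.17.1, pandas 2.3.3 and numpy 2.4.6 in Python 3.11.15, with figures drawn in matplotlib 3.10.9.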

Additional observations from a re-analysis of the deposited data

How the results depend on the processing

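No paired analysis was possible because each treatment is 1 list, of 1 library for mitoxantrone and of several joined ones otherwise, that carries no replicate numbers, and for the same reason no replicate could be left out. The ratio of all CD genes to the like-length expectation stayed within its main 95% interval in all 58 alternatives computed, between 0.972 and 1.22; these varied flanks, overlap, value, length bins, callable windows, joining, CD2AP and CD2BP2, covered bases, shared regions, library component and, added after seeing the data, a local background of 500 kb on each side. The number of CD genes above the like-length mean stayed within 1.5 times of the main count in 42 of 43 alternatives, and fell from 48 to 31 for etoposide with fine components alone, which hold far fewer regions. Counts of genes past 2-fold moved more, in 16 of 46 alternatives. For etoposide 4 of 9 qualifying genes became 1 of 3 with coarse and 1 of 2 with fine components. They became 10 of 30 with a minimum of 5 regions and 2 of 2 with a minimum of 20. For genistein 4 of 16 became 2 of 8 with coarse components. They became 13 of 42 with a minimum of 5 and 2 of 6 with a minimum of 20. For mitoxantrone 2 of 9 became 1 of 12 with 5 kb flanks, 0 of 4 with values of at least 4 and 0 of 1 with coarse components. They became 8 of 30 with a minimum of 5 and 0 of 2 with a minimum of 20. For p-benzoquinone 2 of 16 became 5 of 20 with 5 kb flanks and 0 of 4 with values of at least 4. They became 10 of 43 with a minimum of 5 and 0 of 3 with a minimum of 20. Lower minimums and single components change how many genes qualify. Beyond that the cause was not tested, and the shares of all genes were not computed for these settings. Among named genes with regions in both lists, no ratio past 2-fold changed sign. CD46, with no DMSO region, has no finite ratio to follow, but it was counted among the genes past 2-fold. For genistein the genes at least 2-fold higher fell from 2 to 1 with no flank and with coarse components. CD86 stayed past 2-fold in both, so CD46 was the gene lost. CD46 had no DMSO region in either setting and was lost because its genistein number fell under the minimum of 10 regions. That number was 10 in the main setting, and the coarse genistein components held 6 and 2. Below 2-fold, log2 ratios over DMSO did change sign within components: CD44 from 0.07 to -1.56 in genistein (coarse) and from 0.67 to -0.31 (coarse) or 2.06 (fine) in etoposide, and CD84 from -0.55 to 1.47 in etoposide (fine). CD2AP reached 1.70 in p-benzoquinone within fine components. In all, 16 of 37 such ratios below 2-fold changed sign in at least 1 setting. Small region numbers limit every single gene, and the depth behind the lists is unknown.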
